A study of Drosophila melanogaster with 8 samples.

Results

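The 7 genes described here mark the R8 photoreceptor or steer its axon: sens, boss, melt, Rh5, Rh6, caps and gogo. They were taken by name from a table of 15127 genes, and each was found under its own symbol and FlyBase identifier. RNA was sequenced from dissected retinas of female Drosophila melanogaster pupae at 40 h after puparium formation. There were 4 libraries of a w[1118] control stock, named W1, W2, W5 and W6, and 4 of a w[*] sev[14] stock, named S1, S2, S4 and S5 and called sev14 below. Both stocks carry a w allele, which is named for the control and unspecified for sev14, and both were raised at the same temperature. Per the labels' protocols 10 to 20 retinas were prepared for each genotype, and no label says that the libraries of a genotype came from separate days or crosses, so p-values measure the spread between these libraries. The column names of the table begin with the same letter for all control libraries and with another for all sev14 libraries. What that letter stands for was not stated, and it cannot be told apart from the genotype, nor can other differences between the stocks.

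Each unit of the fly eye holds 8 photoreceptors, of which R7 and R8 are the inner pair that sees colour. R8 is the first to be specified. It then displays Boss on its surface, and Boss binds the Sevenless receptor on the neighbouring precursor, which becomes R7. Without Sevenless that precursor becomes a cone cell. The R7 cell later signals back to R8, which settles on the blue-sensitive opsin Rh5 or the green-sensitive opsin Rh6. In adult eyes that lack R7 cells, R8 cells are known to make mostly Rh6. Opsin transcription normally rises late in pupal life, well after the time sampled here.

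The libraries held between 13755813 and 19317307 reads, recovered from the deposited normalized counts. Values below are those normalized counts, either library by library or as the mean ± SD of 4 libraries. Where 4 values stand in a row they follow the order W1, W2, W5, W6 or S1, S2, S4, S5. A change is the log2 difference, sev14 minus control, of the normalized count plus 1. S2 and S5 had more reads of ribosomal RNA genes, 12.5% and 10.1%, than the other libraries, at 0.528% to 3.67%. The transcript of sev itself stood at 222 to 350 in control and at 119 to 416 in sev14 libraries, with a change of -0.26 (exact permutation p = 0.629, 2-sided, smallest possible p 0.0286), so it gave no check of the labels. Without S4 the sev change was 0.08 (exact permutation p = 0.8). The 16 photoreceptor markers summed to 51953 to 92673 in control and 68490 to 109187 in sev14 libraries. Their highest member, chp, was at 12445 ± 4768 and 21637 ± 8673 (0.79, limma adjusted p = 0.216). By sign alone 9 of the 16 were higher in sev14 and 7 lower, and 0 were called by limma, edgeR or DESeq2. An unadjusted limma p under 0.05 was reached by 3 of the 16, against 1698 of all 10192 genes tested. The 7 R7 markers summed to 7084 to 7801 in control and 6567 to 11792 in sev14 libraries. The highest of them on average, the homeobox gene pros, had 1643.5 to 4597 in control and 1347 to 6875 in sev14 libraries. It is also in the list of bristle markers used below, so the sum does not stand for R7 cells alone. Summed levels of 12 markers of optic lobe and brain neurons ran from 3576 to 8777 in control and from 2435 to 8214 in sev14 libraries, and were highest in W2, S2 and W1 and lowest in S4. The 9 cone cell markers summed to 15286 to 18062 in control and 10620 to 16229 in sev14 libraries, and limma called 1 of them, wrapper, as lower. The 10 glia markers, 2 of which are also in the cone cell list (wrapper and Eaat1), summed to 24917 to 31552 and 25575 to 27643, and limma called 2 of them, wrapper and Mdr65, as lower. Over all genes tested, limma called 1.82% as lower. No cone cell or glia marker was at 0 in any library.

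Of the 7 R8 genes, 6 had a mean of at least 5 normalized counts and were tested, and 1 of them changed. That gene was Rh6, which fell. It passed the filter through its control libraries alone, and its limma adjusted p without a filter was 0.0110. For comparison, limma called 4.21% of the 10192 genes tested in either direction and 1.82% as lower. Rh6 was also the 1 member called by edgeR, which called 3.77% of genes, by DESeq2, which called 8.35%, and in the authors' deposited table, where 6.78% had an adjusted p under 0.05. It was the 1 member whose genotypes did not overlap, as happened in 11.1% of the tested genes in either direction and in 5.18% with sev14 lower. Of the other 5 tested members, 4 were higher on average in sev14 and 1 was lower, and their groups overlapped. The median change of the 6 was 0.20, against 0.00 for all genes tested.

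**Figure D1:**
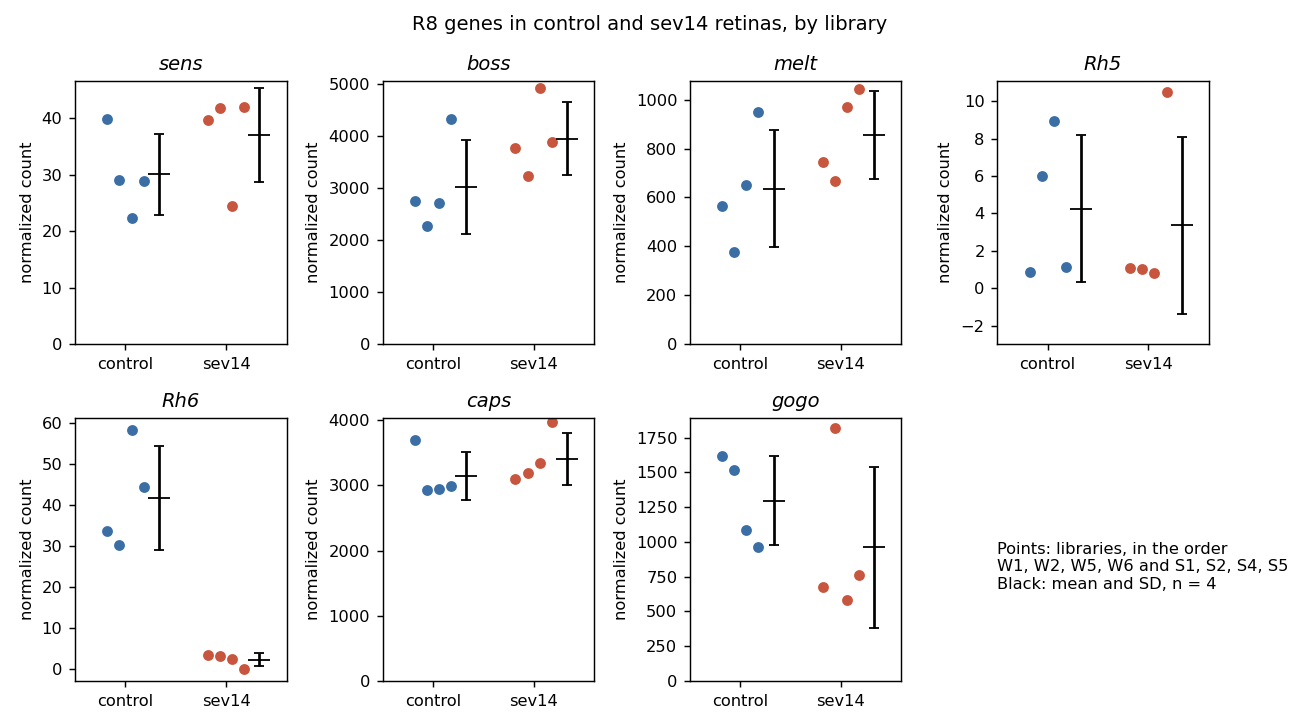
Normalized count (vertical axis) of each of the 7 R8 genes in the 4 control and 4 sev14 libraries. Points are libraries and black marks are the mean and SD. The Rh6 points lie between 30.1 and 58.3 in control and between 0 and 3.22 in sev14, while the points of the other 6 genes overlap.

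Rh6 (FBgn0019940, 3R 15483158 to 15484699, plus strand) encodes the green-sensitive opsin of R8. Its normalized counts were 33.6, 30.1, 58.3 and 44.4 in the control libraries, and 3.22, 3.14, 2.45 and 0 in the sev14 libraries. Every control library thus lay above every sev14 library, with W5 the highest and S5 without a read. The means were 41.6 ± 12.6 and 2.20 ± 1.51, a change of -3.89 with a 95% interval of -5.32 to -2.45 (limma adjusted p = 0.00754). The whole of this difference rested on few reads, 160 from control and 9 from sev14 retinas. The control rate was 18.9 times the sev14 rate, with a 95% counting interval of 9.69 to 42.0 that covers counting error only. No read in S5 allows a level of up to 2.86 normalized counts there, which is 3 reads. The exact permutation test over libraries gave p = 0.0286, the smallest that 70 arrangements can give. Without W6 and S4, which stand low in the neuron markers, the change was -3.95 and the limma adjusted p was 0.0548. In the authors' deposited table the log2 fold change of Rh6 was -4.25, with an adjusted p of 2e-07. In a bulk sample, fewer R8 cells and less Rh6 RNA per R8 cell cannot be told apart. Beside the R8 ligand gene boss, the level of Rh6 per 1000 boss counts was 12.2, 13.3, 21.5 and 10.2 in control and 0.854, 0.969, 0.498 and 0 in sev14 libraries. This ratio was lower in each sev14 library than in any control library. The boss RNA per R8 cell was not measured, so the ratio does not separate cell number from RNA per cell.

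Rh5 (FBgn0014019, 2L 12008153 to 12009832), the blue-sensitive opsin of R8, was at the limit of detection in both genotypes and was not tested by limma, with a mean of 3.80 over the 8 libraries. The control libraries held 1, 6, 8 and 1 reads. S1, S2 and S4 had 1 read each, and S5 had 11. The group means were 4.25 ± 3.94 and 3.36 ± 4.76 normalized counts (exact permutation p = 0.8), and the control rate was 1.21 times the sev14 rate with a counting interval of 0.554 to 2.68. In every control library Rh6 reads outnumbered Rh5 reads, and Rh6 made up 83.3% to 97.6% of the reads of both. In S1, S2 and S4 the count was 3 against 1, and in S5 it was 0 against 11. The 95% exact binomial interval of the Rh6 share ran from 19.4% to 99.4% in S1, S2 and S4, and from 0% to 28.5% in S5, so shares in single sev14 libraries other than S5 were hardly resolved at this depth.

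**Figure D2:**
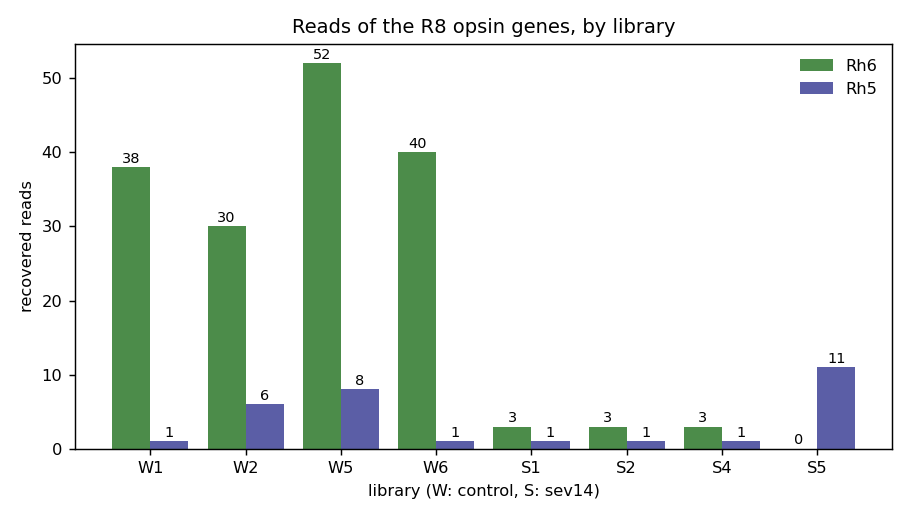
Recovered reads (vertical axis) of Rh6 and Rh5 in each library, with the number above each bar. Control libraries W1, W2, W5 and W6 hold 30 to 52 Rh6 reads and sev14 libraries S1, S2, S4 and S5 hold 0 to 3, while Rh5 stays at 11 reads or fewer in each.

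The remaining opsin genes gave little signal, with 1 exception. Rh2, the opsin of the simple eyes on top of the head, and Rh4, an R7 opsin, had no read in any of the 8 libraries. Rh3, the other R7 opsin, averaged 3.81 ± 5.78 in control and 0.806 ± 1.61 in sev14 libraries. Rh7, an opsin known from brain clock neurons, had reads in every library, at 182 ± 70.8 and 85.7 ± 27.5 (-1.06, limma adjusted p = 0.130). DESeq2 gave Rh7 an adjusted p of 0.0462. Its highest value, 280, was in W1, one of the libraries with high neuron markers. S2, also high in these markers, had 113, and W6, lower in them, had 112. The part of such neurons in the Rh7 level was not tested. The opsin of R1 to R6 was not analysed here.

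For the genes of R8 identity, sens and boss, the intervals of the change did not reach that of Rh6. The zinc-finger gene sens (FBgn0002573, 3L 13396228 to 13401125) is needed for R8 fate and is later known to favour R8 over R7 opsins. Its counts were 39.8, 29.1, 22.4 and 28.9 in control and 39.8, 41.9, 24.5 and 42.0 in sev14 libraries. The genotypes overlapped through W1, which reached the level of S1, and through S4. S2 and S5 lay above every control library. The change was 0.29 with an interval of -0.51 to 1.08 (limma adjusted p = 0.777), which spans a fold of 0.704 to 2.12. Because sens also acts in the sense organ precursors of the bristles between the eye units, bristle markers bear on it. Summed over 14 markers these stood at 18768 to 23760 in control and at 25911 to 30250 in sev14 libraries, without overlap. The highest member, sn, alone had 7984 to 12735 in control and 10052 to 16534 in sev14 libraries. Of the 13 tested, limma called 1 as higher, the actin bundling gene f (0.88, limma adjusted p = 0.00835), and 0 as lower. By sign alone 9 were higher and 4 lower, the latter being ase (-0.46), insc (-0.24), sv (-0.11) and neur (-0.10). The bristle precursor gene sc had 7.35 ± 8.71 and 9.19 ± 8.67. The part of bristle cells in the sens level was not tested.

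The gene boss (FBgn0000206, 3R 25961994 to 25966948) encodes the membrane ligand by which R8 activates Sevenless. The control libraries had 2757, 2267, 2716 and 4333 counts of it, and the sev14 libraries 3773, 3242, 4921 and 3884. All 4 sev14 libraries lay above the control median of 2736, but W6 was above 3 of them. The change was 0.42 with an interval of -0.04 to 0.87 (limma adjusted p = 0.349). The gene melt (FBgn0023001, 3L 7134516 to 7143074) encodes a membrane-binding protein that promotes Rh5 in R8 by acting against the kinase Warts, which promotes Rh6. Its counts were 564, 378, 650 and 951 in control and 745, 667, 969 and 1043 in sev14 libraries. The pattern was that of boss, with all sev14 libraries above the control median of 607 and W6 above 2 of them (0.48, interval -0.11 to 1.07, limma adjusted p = 0.415). The last 84 bases of melt, 1.92% of its exon bases, lie under corn on the opposite strand, and corn was at 5389 ± 659 and 6633 ± 1186. No source used here says whether reads were counted by strand.

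Of the targeting genes, caps (FBgn0023095, 3L 13228692 to 13279642) encodes a leucine-rich-repeat surface protein that R8 axons use to stop at their layer of the optic lobe. It was the least variable member, with 3689, 2925, 2948 and 2991 counts in control and 3097, 3186, 3349 and 3978 in sev14 libraries. The groups overlapped through W1. The change of 0.12 had an interval of -0.17 to 0.40 (limma adjusted p = 0.742), or a fold of 0.889 to 1.32, and was -0.03 when libraries were scaled by total reads, a scaling that moved the median gene by -0.14. For caps, 1 other gene of its span was in the table, CG32119 on the opposite strand, with a mean of 0 in control and 2.02 ± 1.80 in sev14 libraries.

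The gene gogo (FBgn0052227, 3L 20268859 to 20295133) encodes a receptor that guides R8 axons together with the cadherin Flamingo. Control libraries gave 1618, 1514, 1088 and 964 counts, and sev14 libraries 675, 1820, 585 and 762. S1, S4 and S5 lay below every control library and S2 lay above every one. Over all 8 libraries the change was -0.56 with an interval of -1.30 to 0.18 (limma adjusted p = 0.464). Without S2 it was -0.92 and passed the test (limma adjusted p = 0.0391), so 1 library decided this call. Without both S2 and S5 it was -1.01 and did not pass (limma adjusted p = 0.0691). The libraries S2, W1 and W2, highest in gogo, were also highest in the optic lobe and brain neuron markers, with sums of 8214, 8108 and 8777. S4 was lowest in both. In boss and melt the order was nearly opposite, with W2 lowest in each of these genes and S4, W6 and S5 the 3 highest. The summed photoreceptor markers were also lowest in W2, at 51953. Their 3 highest sums were in S4, W6 and S5, at 109187, 92673 and 78122. None of the 12 neuron markers was at 0 in any library, and the glutamate transporter gene VGlut ranged from 669 in S4 to 3264 in W2. Of the neuron markers limma called 0, as did edgeR and DESeq2. Of the 12, 1 had an unadjusted limma p under 0.05, against 1698 of all 10192 genes tested. The part of such neurons, or of the amount of photoreceptor RNA, in the gogo, boss and melt levels was not tested.

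**Figure D3:**
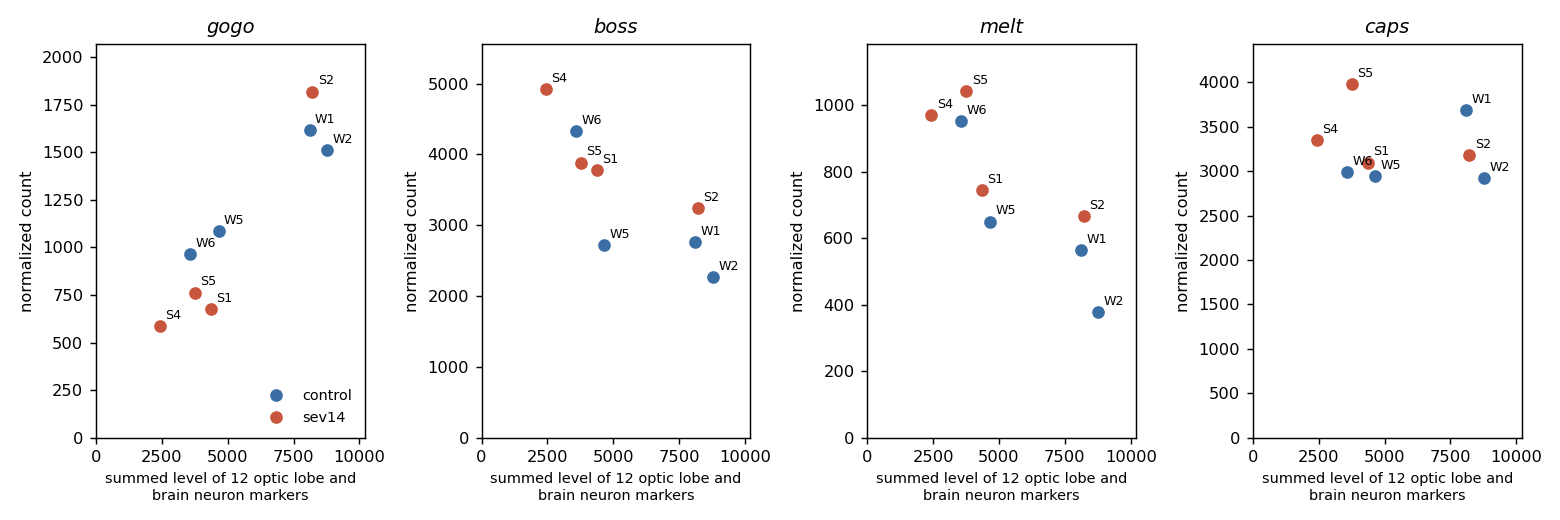
Normalized count of gogo, boss, melt and caps (vertical axes) against the summed normalized counts of 12 optic lobe and brain neuron markers (horizontal axis) in the 8 libraries. The gogo points are highest in W1, W2 and S2, at 1514 to 1820, the 3 libraries with the highest marker sums, and boss and melt are lowest in W2.

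Per kilobase of exon the members spanned a wide range of levels in control retinas. The order was boss at 1002 ± 300.2 normalized counts per kb, caps at 648 ± 76.1, gogo at 254 ± 62.5, melt at 145 ± 54.7, Rh6 at 29.6 ± 8.99, sens at 12.3 ± 2.95 and Rh5 at 2.70 ± 2.51. Among neighbours in this order, boss and caps overlapped over the control libraries, as did gogo and melt, and the other neighbours did not. Within a library boss was above caps in 8 of 8, by a ratio of 1.20 to 2.36. In sev14 retinas Rh6 dropped out of this order to 1.57 ± 1.07 per kb, below sens at 15.1 ± 3.43 and next to Rh5 at 2.14 ± 3.03. Of 5 ratios between per-kb levels compared between the genotypes (boss to sens, to caps and to melt, and caps to gogo and to its paralog trn), none passed an exact permutation test. The lowest p was that of caps to gogo, at 2.64 ± 0.536 in control and 4.55 ± 1.87 in sev14 libraries (exact permutation p = 0.171, 0.643 after adjustment over the 5).

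The genes around R8 biology were read from 5 lists that hold 63 genes, of which 58 were tested. Of these, 2 rose and 2 fell, and Rh6 is 1 of the falls. Over all genes tested, 2.38% rose and 1.82% fell. The median change was -0.07. With edgeR 3 were called and with DESeq2 6. The lists cover R8 specification, the switch between Rh5 and Rh6, the Activin and BMP signals from R7 to R8, R8 axon targeting and the opsins.

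**Figure D4:**
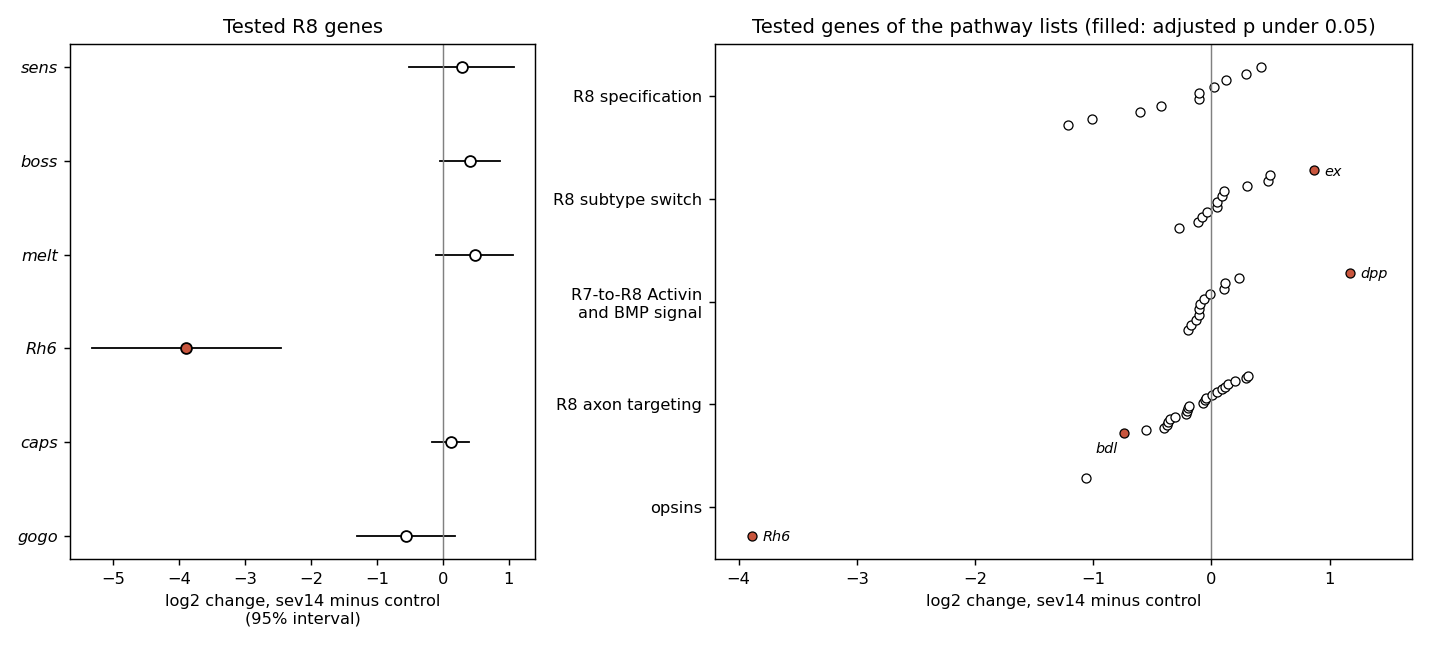
Left, log2 change (sev14 minus control, horizontal axis) of the 6 tested R8 genes with 95% intervals. Right, the same change for each tested gene of the 5 pathway lists, filled where the limma adjusted p is under 0.05. Rh6 at -3.89 stands far from the other genes, and ex, dpp and bdl are the other filled points.

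In the specification list, 10 of 11 genes were tested and 0 passed the limma test. An unadjusted limma p under 0.05 was reached by 2, against 1698 of all 10192 genes tested. In this list edgeR called 0 and DESeq2 1. The proneural gene ato, which starts R8 fate in the larval eye disc, was below the filter at 1.55 ± 3.10 and 5.85 ± 6.09. The 2 genes with the lowest p were emc, an inhibitor of proneural proteins, and salr, a zinc-finger gene of R7 and R8 maturation. For emc the counts were 2763, 2485, 3087 and 2474 in control and 1929, 2322, 1958 and 1821 in sev14 libraries, which do not overlap (-0.43, limma adjusted p = 0.0922, DESeq2 adjusted p = 0.0291). For salr the means were 485 ± 214 and 235 ± 90.2 (-1.01, limma adjusted p = 0.153, DESeq2 adjusted p = 0.0527), and S4 at 364 lay above W1 and W2. Its partner salm averaged 368 ± 154 and 238 ± 72.5 (-0.60, limma adjusted p = 0.373). In the authors' deposited table both emc and salr passed 0.05, with an adjusted p of 0.0211 for emc and 0.0143 for salr.

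In the list for the opsin switch, 12 of 12 genes were tested, 1 rose and 0 fell. The kinase gene wts, whose product drives Rh6 in R8, had 1389 ± 234 counts in control against 1283 ± 172 in sev14 (-0.11, limma adjusted p = 0.803). The upstream kinase gene hpo was at 1008 ± 134 and 830 ± 61.4 (-0.27, limma adjusted p = 0.341), and oc, also called orthodenticle, an activator of Rh3 and Rh5, at 1320 ± 216 and 1368 ± 252. The gene that rose was ex, which encodes an upstream regulator of the same Hippo pathway at the cell cortex. It stood at 627, 460, 756 and 515 in control and at 876, 1044, 1166 and 1164 in sev14 libraries. Every sev14 library was above every control library (0.87, limma adjusted p = 0.0213). The limma adjusted p of ex was 0.0579 without W2, 0.0644 without W6 and 0.0591 without S5. It was 0.114 with W6 and S4 left out, and 0.130 with S2 and S5 left out. With all libraries, the adjusted p was 0.0268 by edgeR, 0.000752 by DESeq2 and 7.28e-05 in the authors' deposited table.

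Of the 12 Activin and BMP genes, all tested, 1 rose and 0 fell. The ligand gene Actbeta, known to act from R7 on R8, was at 2594 ± 468 and 2288 ± 613 (-0.20, limma adjusted p = 0.700), and gbb, the BMP ligand of the same step, at 1303 ± 274 and 1390 ± 186 (0.11, limma adjusted p = 0.833). Their type I receptor genes babo and tkv had differences of -0.01 and -0.06, smaller than the spread between libraries. The gene that rose was dpp, the other main BMP ligand of the fly, at 351, 317, 622 and 485 in control and at 889, 785, 1570 and 784 in sev14 libraries. The lowest sev14 library was above the highest control library (1.17, limma adjusted p = 0.0425). The limma call sat at the threshold: the adjusted p lay between 0.0572 and 0.121 without W1, W2, W6, S1, S4 or S5. For dpp it was 0.0531 by edgeR and 0.0732 by limma under total-read scaling. By DESeq2 the adjusted p was 0.00235, and in the authors' deposited table it was 0.000195.

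Of the 22 axon targeting genes, all tested, 0 rose and 1 fell. It was bdl, which encodes an immunoglobulin-family membrane protein of photoreceptor axons, at 1146, 825, 1122 and 1113 in control and at 552, 605, 638 and 718 in sev14 libraries. The genotypes did not overlap (-0.74, limma adjusted p = 0.0198). Its limma adjusted p was between 0.0603 and 0.0656 without W1, W5, W6 or S1. It was 0.0889 with W6 and S4 left out, and 0.0608 with S2 and S5 left out. With all libraries, the adjusted p of bdl was 0.0166 by edgeR, 0.000344 by DESeq2 and 4.48e-05 in the authors' deposited table. Glia markers moved with bdl in part. The surface protein gene wrapper fell by 0.76 (limma adjusted p = 0.0146) and the transporter gene Mdr65 by 0.69 (limma adjusted p = 0.0425). The glial fate gene repo was at 2322 ± 479 and 1506 ± 264 without overlap (-0.62, limma adjusted p = 0.0940, DESeq2 adjusted p = 0.0289), whereas nrv2, a sodium pump subunit gene, was at 3991 ± 331 and 5797 ± 871 (0.53, limma adjusted p = 0.0686, DESeq2 adjusted p = 0.00721). The other 6 glia markers overlapped between genotypes. Of all genes tested, 11.1% did not overlap, in either direction. The part of glia in the bdl level was not tested. The partner of gogo, the cadherin gene stan, also called flamingo, was at 6527 ± 1571 and 7420 ± 3478 (0.09, limma adjusted p = 0.942), and hts, which encodes an adducin that binds Gogo, at 6540 ± 459 and 5730 ± 674 (-0.20, limma adjusted p = 0.521). The netrin gene NetB, whose receptor Frazzled guides R8 axons, was at 2978 ± 489 and 2319 ± 446 (-0.36, limma adjusted p = 0.315). The paralog of caps, trn, was at 3743 ± 604 and 4636 ± 806 (0.31, limma adjusted p = 0.388).

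The genes next to the members were read from the same fit. B9d1, a basal body gene that ends 253 bases before Rh6 on the same strand, was at 13.9 ± 5.42 and 12.1 ± 4.05 (-0.18, limma adjusted p = 0.924), and the neuropeptide gene Trissin, 30 bases beyond its other end, was listed at 0.280 ± 0.560 and 0. Within 50 kb of Rh6 there were 6 other tested genes, and 0 were called by limma (lowest adjusted p = 0.320). Around boss and melt 0 of 8 each were called, around gogo 0 of 14, and around sens 2 of 15, cmb and CG14107. The neighbours of Rh5 included 3 called genes of 25, Ada1-1, Ada1-2 and CG18789, against 4.21% of all genes tested. These 5 were named after their values were seen. Of the genes inside the span of gogo, CG17122 was at 14.3 ± 6.23 and 36.7 ± 33.6.

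For the 6 members with a mean of at least 20, the genes of most similar pattern over the 8 libraries were sought among 9069 others, by the root mean square difference of log2 levels centred on each gene's own mean. For Rh6 these were Gr21a, a subunit of the carbon dioxide receptor of the antenna, spd-2, a centrosome gene, and lncRNA:CR44043, with differences of 0.525, 0.597 and 0.614 against a spread of Rh6 itself of 2.05. They shared its step between genotypes: Gr21a was at 40.1 ± 5.21 and 2.78 ± 3.17, and spd-2 at 146 ± 12.6 and 13.1 ± 9.99. For gogo the nearest genes were vimar, Hasp and dpr1, with differences of 0.125 to 0.149 against its own spread of 0.574. For boss they were Fitm, Rip11 and CG7884, for melt Oseg4, pwn and mew, for sens CG3091, hfp and CG45069, and for caps CG9330, DCAF12 and Lpt. How close a match 8 libraries and so many genes give by chance was not tested.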

How the data were processed

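RNA from pooled pupal retinas was selected for polyadenylated transcripts and read as paired ends, per the labels' protocols. Per the submitters' processing notes, the tools were DESeq2 1.32.0, RSEM 1.2.31, HISAT2 2.0.3, cutadapt 1.9.1 and FastQC 0.11.4, with BDGP6 and dm6 as builds. The deposited table gives a signal per gene and library, normalized counts that the authors made by dividing gene counts by 1 factor per library. It also gives the authors' log2 fold change, a score per gene that was not used, and the authors' p-value with its adjustment. Of the values above 0, at least 99.99% in each library lay within 0.05 reads of a whole multiple of 1 read, and reads were recovered from these steps. Columns were assigned to genotypes by name, and their numbers are not those of the sample titles. Chi-square per degree of freedom between libraries of a genotype was at least 40.9, so none was counted as a duplicate.

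All genes averaging 5 or more normalized counts entered a 2-sided limma 3.58.1 test (R 4.3.3), trended on intensity, of log2(normalized count + 1), with Benjamini-Hochberg adjustment over all genes tested and a threshold of 0.05. This scale understates the change of low genes. Exon lengths are unions of Ensembl release 115 exons, and 98.6% of matched genes had the deposited coordinates there. Alternatives were TMM scaling, recomputed size factors, total-read scaling, pseudocounts of 0.5 and 5, no filter or one at 20, DESeq2 1.42.0 and edgeR 4.0.16 on recovered reads, array weights, leaving out each library, leaving out the pair W6 with S4 or the pair S2 with S5, and a replicate block. The R8 genes, the lists, the tests and the alternatives were chosen with earlier results of these data known. Of 132 list entries 131 were matched. The named genes are the members, sev, called genes of the pathway lists or the 2 of lowest p where none was called, the opsins, direct neighbours and the 3 genes of most similar pattern, and further genes of the lists were added for their role after their values were seen. Python 3.11.15 was used for tables and drawing.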

Additional observations from a re-analysis of the deposited data

Results flagged for a closer look

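In 6 of 26 sets of 4 libraries looked at, covering the R8 genes, sev and the 5 other genes named from the lists, 1 library stood apart from the other three by more than Dixon's limit, which chance gives in about 1 of 20 sets. The lowest sev14 library for sens was S4 at 24.5, and the highest for Rh5 was S5 at 10.5, which is 11 reads. The highest control library for caps was W1 at 3689. The highest sev14 library for gogo was S2 at 1820, against 585 to 762 in the others. The lowest control library for bdl was W2 at 825, and the highest sev14 library for dpp was S4 at 1570.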

How the results depend on the processing

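The fall of Rh6 kept its direction under all 21 alternatives (log2 change -4.27 to -2.68) and its call under 19, with -3.40 to -4.09 and adjusted p of at most 0.0401 when any 1 library was left out. It lost the call, at -3.95, without W6 and S4 (adjusted p = 0.0548) and under a replicate block on the column number (adjusted p = 0.0774). That block holds the 6 libraries whose numbers both genotypes share, and the numbers were not shown to pair the libraries: correlations of same-numbered deviations were 0.0869, 0.190 and 0.0625, and W1, S1 and S5 did not correlate best with their own number. The number of R8 genes called lower was 1 to 2 over the left-out libraries, 0 without W6 and S4, and 0 with the block, and 0 were called higher under any alternative. The second gene was gogo, called at -0.92 without S2. The caps change turned to -0.026 under total-read scaling, and the sev change to 0.065 without W6 and S4 and with the block, and to 0.083 without S4, with -0.51 the lowest over left-out libraries, and was -0.91 without S2 and S5 (exact permutation p = 0.0667, the smallest these libraries can give).

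For the pathway lists, the number called higher was 0 to 2 over the left-out libraries, 1 with total-read scaling, edgeR and array weights, and 0 without W6 and S4, without S2 and S5 and with the block. The number called lower was 1 to 3 over the left-out libraries, 4 with DESeq2, 1 without S2 and S5, and 0 without W6 and S4 and with the block. Over all genes, DESeq2 called 503 higher and 344 lower, against 243 and 186. Without W6 and S4 there were 156 and 106, and without S2 and S5 145 higher. Left-out libraries gave 137 to 251 higher and 111 to 189 lower. The cause of these shifts was not tested. The block, the doubled removals and the left-out libraries also use fewer libraries. Depth limits the sev14 values of Rh5 and Rh6, which rest on 14 and 9 reads.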
